A study of Homo sapiens with 6 samples.

Results

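The nuclear genes of respiratory complexes I to IV were followed in SKOV3 cells, a human ovarian cancer cell line, after silencing of EIF5A2, a paralog of the translation factor EIF5A. Cells received si-EIF5A2 or a control siRNA (NC) by transient transfection, and mRNA was sequenced in 3 libraries per group after 48 h. The members were the protein-coding genes with symbols beginning NDUFA, NDUFB, NDUFC, NDUFS, NDUFV, UQCR, COX4, COX5, COX6, COX7 or COX8, together with SDHA, SDHB, SDHC, SDHD and CYC1. These rules took 78 of the 58825 genes in the table, and 72 of the 78 passed the filter on low counts that left 16208 genes for testing. All cells were of the same line, no untransfected cells were included, and the sources do not say whether the 3 libraries of a group came from separate cultures, so p-values measure only the spread between these libraries.

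The respiratory chain sits in the inner mitochondrial membrane and passes electrons from NADH and succinate to oxygen. Complex I (NADH dehydrogenase) and complex II (succinate dehydrogenase) reduce ubiquinone, complex III (the cytochrome bc1 complex) passes the electrons to cytochrome c, and complex IV (cytochrome c oxidase) reduces oxygen. Complexes I, III and IV pump protons that drive ATP synthase, and each of these combines subunits encoded in the nucleus with subunits encoded in mitochondrial DNA, whereas complex II is encoded in the nucleus alone.

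The libraries held 46900204 to 74142267 estimated counts, and levels are given as CPM, in which TMM factors put the libraries on the same scale. EIF5A2, the siRNA target (chromosome 3), stood at 27.8, 29.8 and 29.9 CPM in NC 1, 2 and 3 and at 2.76, 4.04 and 4.27 CPM in si-EIF5A2 1, 2 and 3, so all 6 libraries matched their labels. The EIF5A2 log2 fold change was -2.98 (SE 0.18, edgeR adjusted p = 1.6e-05). Of the epithelial and line markers, KRT7, KRT8, KRT18, PAX8 and ERBB2 were expressed, EPCAM was near 0 (1.55 ± 0.0962 CPM in NC), KRT19 and WT1 did not exceed 3.85 CPM, and MUC16 was at 0 in every library. Of the 8 tested, KRT7, KRT8 and PAX8 fell past both thresholds (log2 fold changes -0.87, -0.69 and -0.80, edgeR adjusted p = 0.000101, 0.000536 and 0.000928), and the summed level of all 9 was 1508 to 1675 CPM in NC, against 958 to 1170 in si-EIF5A2. The part of this in the members' values was not tested. Of the leukocyte markers, PTPRC and CD3E were at 0 in every library, CD14 did not exceed 0.0565 CPM and CD79A lay between 0.192 and 0.548 CPM, and the fibroblast and endothelial markers did not exceed 2.04 CPM in any library. The 4 fibroblast markers summed to 0.872 to 1.41 CPM in NC, against 0.782 to 3.00 in si-EIF5A2, with PDGFRB called lower, and the 3 endothelial markers summed to 1.94 to 2.37 CPM, against 0.156 to 1.0007, where PECAM1 and VWF did not pass the test (edgeR adjusted p = 0.0941 and 0.775). Log2 CPM profiles correlated at 0.964 to 0.974 within a group and at 0.929 to 0.938 between groups, over 16208 genes.

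The genes of the respiratory chain did not move as a block. In complex III, transcripts of the core proteins UQCRC1 and UQCRC2 and of cytochrome c1 (CYC1) fell, each to 44.1% to 46.1% of the NC level, while its other 7 members lay between 73.5% and 127% of NC. In complex I, the accessory subunit NDUFA8 rose, to 186% of NC. A further member, NDUFA4L2, fell at a very low level. In bulk RNA, fewer cells that express a gene and less of its RNA per cell cannot be told apart. These 5 are among the 6 members with an edgeR quasi-likelihood adjusted p below 0.05 and a change of more than 1.5-fold.

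The 4 members that fell were 5.56% of the 72 tested, where 13.6% of all genes tested fell by the same rule, and the 2 that rose were 2.78%, where 11.1% of all genes rose. Without the limit on fold, 13 members were lower and 13 were higher, 18.1% in each direction beside 18.9% and 18.0% of all genes tested. All si-EIF5A2 libraries lay below all NC libraries for 17 members (23.6%, with 26.5% of all genes) and above them for 19 members (26.4%, with 24.7% of all genes). Without a fold limit, 7 members were lower when NC 1 was left out and 8 when si-EIF5A2 1 was left out, and with the fold limit 4 were higher without NC 3 or without si-EIF5A2 3. The 4 shares without a fold limit or by overlap lie near the background and are no result about the members. The median log2 fold change (si-EIF5A2 against NC) was -0.0041 over the members and -0.010 over all genes tested, and the members' lower and upper quartiles were -0.23 and 0.21, against -0.50 and 0.41 for all genes. Members and all genes were not matched for level, and the part of level in these shares and quartiles was not tested. The split between directions moved with a correction for base composition, among the members and among all genes. After correction of the values for GC content and length, 4 members were lower and 5 were higher with the fold limit. Of all genes, 11.25% were lower and 14.04% higher by that rule. Without the limit 7 members were lower and 18 higher, beside 16.2% lower and 23.4% higher among all genes.

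**Figure D1:**
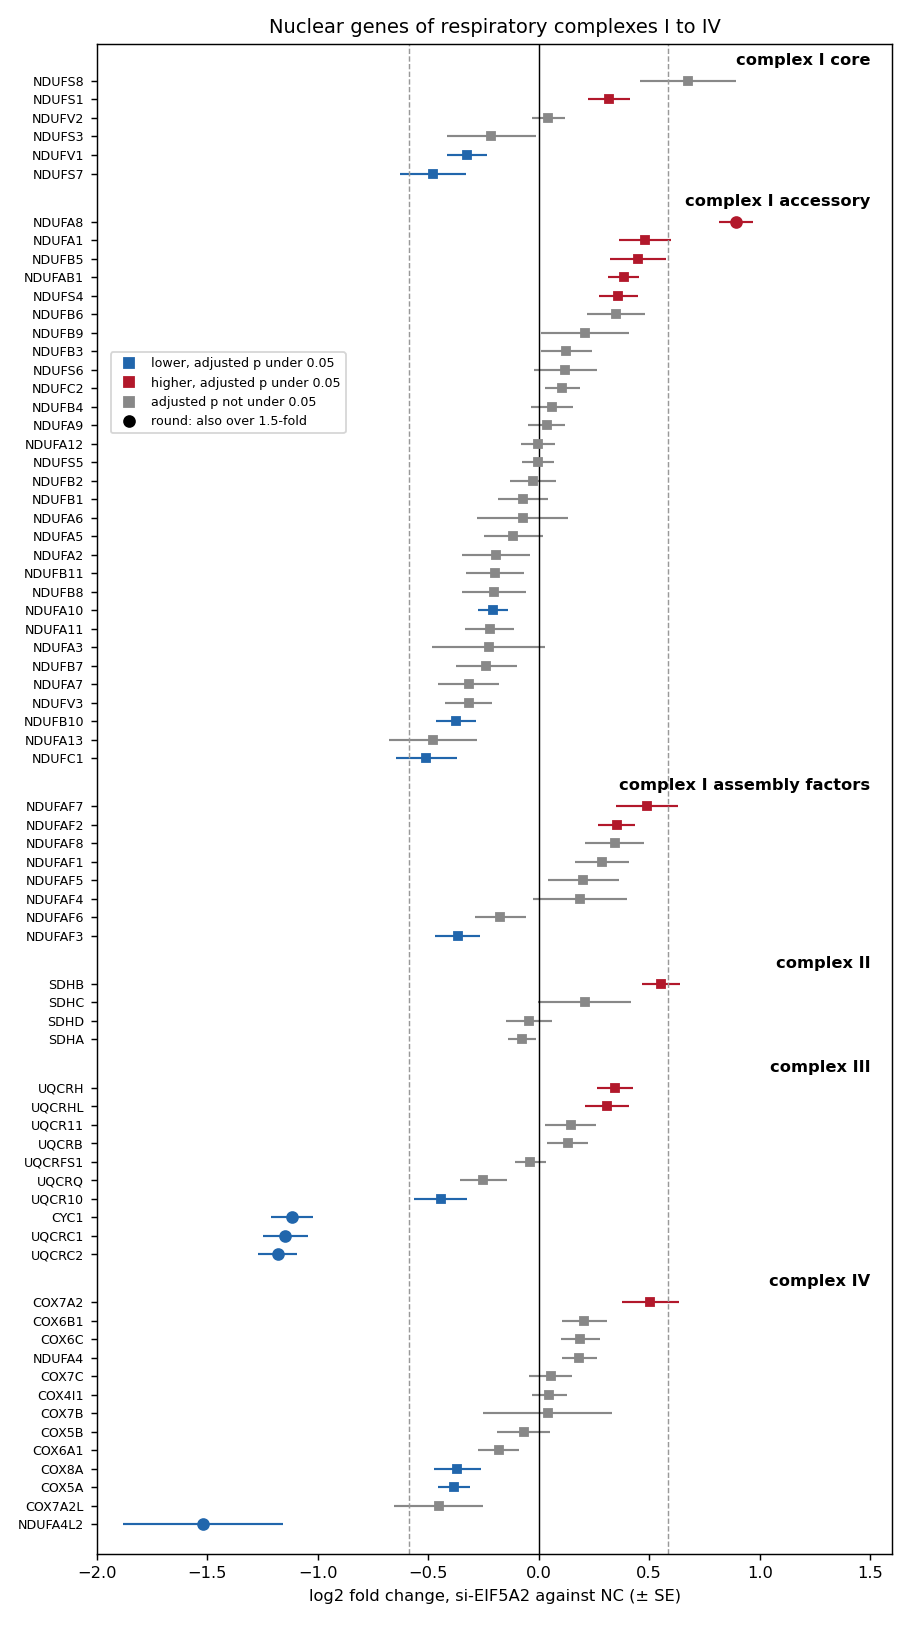
Log2 fold change (si-EIF5A2 against NC) of 71 of the 72 members tested, with a row per gene, grouped by role, with the standard error as a bar and dashed lines at 1.5-fold. Most members lie within the dashed lines, with UQCRC1, UQCRC2, CYC1 and NDUFA4L2 to the left of them and NDUFA8 to the right. NDUFS8 also lies to the right, with an adjusted p of 0.052.

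Complex III held 3 of the 6 members past both thresholds. All 3 fell, of 10 tested in this group, where 13.6% of all genes tested fell by the same rule. No test was made of this count. UQCRC1, a core protein of the matrix arm (chromosome 3, 48599002 to 48610976, minus strand, GRCh38), was at 365, 392 and 323 CPM in NC 1, 2 and 3 and at 150.3, 180 and 158 CPM in si-EIF5A2 1, 2 and 3. The groups were far apart, with the highest si-EIF5A2 library well under the lowest NC library. Its log2 fold change was -1.15 (SE 0.10, edgeR quasi-likelihood test, Benjamini-Hochberg adjusted p = 0.000101).

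UQCRC2, the partner core protein (chromosome 16, 21952660 to 21983660, plus strand), was at 142, 136 and 162 CPM in NC and at 68.0, 63.9 and 61.9 CPM in si-EIF5A2. The 3 silenced libraries were close to each other and the groups did not overlap. Its log2 fold change was -1.18 (SE 0.089, edgeR adjusted p = 4.36e-05), the lowest of complex III.

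CYC1 encodes cytochrome c1, the haem protein that hands electrons to cytochrome c (chromosome 8, 144095027 to 144097525, plus strand). Its level was 425, 370 and 355 CPM in NC, against 165, 192 and 173 in si-EIF5A2, again with no overlap. The log2 fold change was -1.12 (SE 0.096, edgeR adjusted p = 8.8e-05). Per kilobase of transcript (median length of the best-ranked annotated transcripts), the order in NC was CYC1 (309 ± 30.0015 CPM per kb, SD, n = 3), UQCRC1 (181 ± 17.6 CPM per kb) and UQCRC2 (56.0 ± 5.10 CPM per kb), and in si-EIF5A2 the same order held at 143 ± 11.3, 81.9 ± 7.76 and 24.7 ± 1.19 CPM per kb. Neighbours in this order were separated by more than their SDs.

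These 3 genes took 46.4%, 44.6% and 42.8% of the summed complex III level (CPM) in NC 1, 2 and 3 and 25.5%, 25.9% and 25.03% in the si-EIF5A2 libraries. The sum of the other 7 members was 1104 ± 23.3 CPM in NC, against 1182 ± 65.2 in si-EIF5A2 (SD, n = 3), or 107% of NC. The summed CPM of all 10 members, without scaling for length, was 79.5% of NC. The 3 genes were set apart because they fell, so their lower share follows from that choice and is only a description. The CPM ratio of UQCRC1 to UQCRC2 was 2.58, 2.88 and 1.997 in NC and 2.21, 2.81 and 2.55 in si-EIF5A2, with overlapping ranges. The ratio of UQCRC1 to UQCRFS1, the Rieske iron-sulfur protein of the same complex, was 2.495, 2.59 and 2.03 in NC and 1.02, 1.17 and 1.10 in si-EIF5A2.

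**Figure D2:**
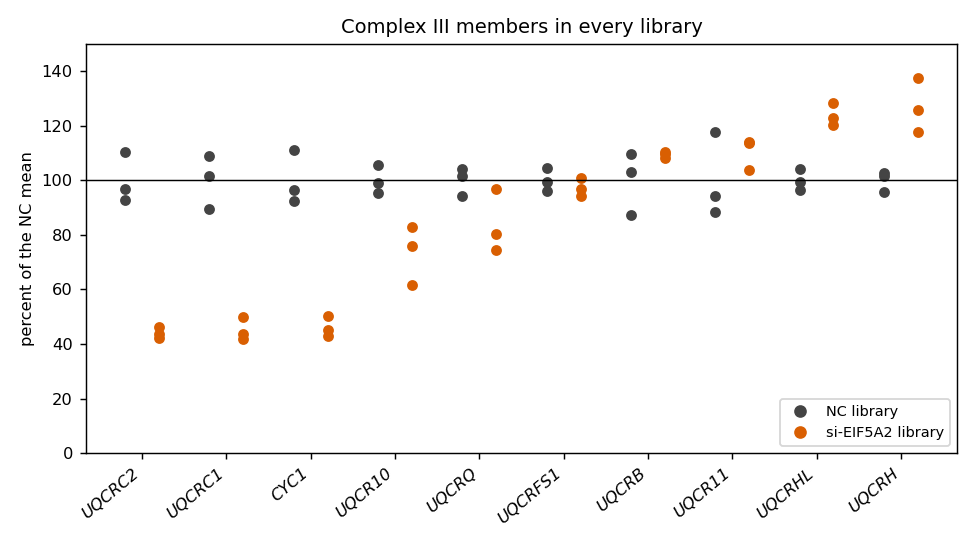
Level of each complex III member in every library, as a percent of that gene's NC mean (vertical axis), with NC libraries in grey and si-EIF5A2 libraries in orange. The orange points of UQCRC2, UQCRC1 and CYC1 have means of 44.1% to 46.1% of NC, apart from the other 7 genes, and those of UQCRHL and UQCRH lie above 100%.

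The remaining complex III subunits spread on both sides of NC. UQCR10, a small subunit near cytochrome c1, was at 76.3, 69.0 and 71.5 CPM in NC and at 44.5, 59.9 and 55.0 CPM in si-EIF5A2, and was lower in every silenced library (log2 fold change -0.44, SE 0.12, edgeR adjusted p = 0.0197), short of 1.5-fold. UQCRH, the hinge protein that contacts cytochrome c1, was higher at 307, 330 and 327 CPM in NC, against 378, 442 and 405 in si-EIF5A2 (log2 fold change 0.35, SE 0.080, edgeR adjusted p = 0.0107). UQCRHL, an intron-poor copy of UQCRH, moved the same way (0.31, adjusted p = 0.0408), but the near-identical sequences leave the split of fragments between the copies uncertain. UQCRFS1, UQCRB, UQCR11 and UQCRQ did not pass the test, with log2 fold changes of -0.04, 0.13, 0.14 and -0.25.

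Complex I core subunits, which include the carriers of the flavin and of the iron-sulfur clusters, moved in both directions. NDUFS8, an iron-sulfur subunit, was at 85.1, 70.5 and 57.2 CPM in NC, against 105, 146 and 89.4 in si-EIF5A2. Its silenced libraries were all above NC but scattered, and its log2 fold change of 0.68 (95% interval 0.15 to 1.201) did not pass the test (adjusted p = 0.052), although it passed both thresholds under 8 of 19 alternative refits.

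NDUFS1, which holds iron-sulfur clusters of the peripheral arm, was higher at 125% of NC (log2 fold change 0.32, edgeR adjusted p = 0.0327). NDUFV1, the flavoprotein that accepts electrons from NADH, and NDUFS7, an iron-sulfur subunit at the quinone site, were lower, with log2 fold changes of -0.33 (adjusted p = 0.0238) and -0.48 (adjusted p = 0.0392). NDUFS7 ranged from 42.2 to 62.3 CPM in NC and from 34.6 to 37.7 CPM in si-EIF5A2, with NC 1 the highest library. After correction for GC content and length, the log2 fold change of NDUFV1 moved to -0.07. When a replicate block was added to this correction, that of NDUFS7 moved to -0.22. Neither gene kept an adjusted p under 0.05 in all 19 refits. NDUFV2 and NDUFS3 did not pass the test (0.04 and -0.21).

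The 30 accessory subunits of complex I surround the core and take no direct part in electron transfer. Among them NDUFA8 was the only member past both thresholds, where 11.1% of all genes tested rose and 13.6% fell. NDUFA8, a subunit with paired cysteine motifs on the intermembrane-space face (chromosome 9, 122144058 to 122159819, minus strand), was at 54.3, 53.1 and 56.7 CPM in NC and at 97.5, 108 and 98.8 CPM in si-EIF5A2. Replicates were tight and the groups were apart (log2 fold change 0.89, SE 0.078, edgeR adjusted p = 9.47e-05).

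Smaller accessory differences passed the test without reaching 1.5-fold. NDUFA1 (0.48), NDUFB5 (0.45), NDUFAB1 (0.38), the mitochondrial acyl carrier protein, and NDUFS4 (0.36) were higher, and NDUFC1 (-0.51), NDUFB10 (-0.37) and NDUFA10 (-0.21) were lower, in log2 fold change. NDUFA1, a small membrane-arm subunit encoded on the X chromosome, was at 59.9, 62.8 and 68.1 CPM in NC and at 74.6, 99.5 and 92.0 CPM in si-EIF5A2. NDUFC1 was at 26.7, 25.5 and 24.01 CPM in NC and at 14.6, 20.3 and 18.7 CPM in si-EIF5A2, the lowest log2 fold change of the group. The other 22 accessory subunits did not pass the test, and the summed level of the group was 102% of NC (2244 ± 97.7 CPM in NC, 2279 ± 174 CPM in si-EIF5A2).

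The symbol rule also took 8 complex I assembly factors, the NDUFAF genes, which help build the complex but are not part of it. NDUFAF7, a methyltransferase, was at 9.19, 10.5 and 12.7 CPM in NC and at 14.9, 15.6 and 14.97 CPM in si-EIF5A2 (log2 fold change 0.49, SE 0.14, edgeR adjusted p = 0.0278). NDUFAF2 was also higher (0.35, adjusted p = 0.013), and NDUFAF3 was lower (-0.37, adjusted p = 0.0242). The other 5 did not pass the test, and none of the 8 reached 1.5-fold.

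Complex II changed in SDHB alone by the test. SDHB, the iron-sulfur subunit of succinate dehydrogenase (chromosome 1), was at 75.8, 78.7 and 88.6 CPM in NC, against 114, 118 and 125 in si-EIF5A2, with no overlap (log2 fold change 0.55, SE 0.085, edgeR adjusted p = 0.00155), just short of 1.5-fold. SDHA, the flavoprotein subunit, had a log2 fold change of -0.08 (95% interval -0.22 to 0.07), and its pseudogenes held 7.71% of its own counts. The membrane anchors SDHC and SDHD had log2 fold changes of 0.21 (95% interval -0.30 to 0.72) and -0.04 (95% interval -0.29 to 0.20). Whether SDHB differed from the other subunits in response was not tested.

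Complex IV held 19 members, of which 13 were tested. COX7A2, the widely expressed isoform of subunit VIIa, was higher at 77.2, 68.8 and 68.0 CPM in NC and 121, 97.2 and 86.1 CPM in si-EIF5A2 (log2 fold change 0.51, SE 0.13, edgeR adjusted p = 0.0165). COX5A and COX8A, small nuclear-encoded subunits, were lower (-0.38, adjusted p = 0.00418, and -0.37, adjusted p = 0.0277). COX5A was tight, at 132 to 138 CPM in NC, against 98.2 to 110 in si-EIF5A2.

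NDUFA4L2, a paralog of the complex IV subunit NDUFA4 that is known as a hypoxia-responsive gene (chromosome 12, 57234903 to 57240715, minus strand), was at 3.40, 2.80 and 2.53 CPM in NC and at 1.08, 0.556 and 1.42 CPM in si-EIF5A2. The groups did not overlap, at a low level (log2 fold change -1.52, SE 0.36, edgeR adjusted p = 0.0123). NDUFA4 itself was at 146, 138 and 139 CPM in NC, against 148, 174 and 159 in si-EIF5A2 (0.18, adjusted p = 0.115).

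Isoform use in complex IV was that of the general rather than the muscle, lung or testis forms. COX4I1, COX6A1 and COX6B1 were expressed at 221, 305 and 106 CPM in NC, while COX4I2, COX6A2, COX6B2, COX7A1 and COX7B2 were at 0 in all 6 libraries, which allows up to 0.154 CPM in the deepest and 0.239 CPM in the shallowest library (3 fragments, counting error only). COX8C, a testis isoform, had 4 counts in si-EIF5A2 3 and 0 elsewhere. These 6 genes were the members left out by the filter.

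COX7A2L, which helps join complexes III and IV into supercomplexes, was at 167, 170 and 275 CPM in NC, against 147, 158 and 142 in si-EIF5A2. NC 3 stood apart, and the difference did not pass the test (log2 fold change -0.45, 95% interval -0.94 to 0.03, adjusted p = 0.132). COX7B was likewise scattered in NC, at 25.5, 51.5 and 27.1 CPM, and overlapped fully with si-EIF5A2. COX6C, COX7C, COX4I1, COX6B1, COX5B and COX6A1 did not pass the test, with log2 fold changes between -0.18 and 0.21.

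**Figure D3:**
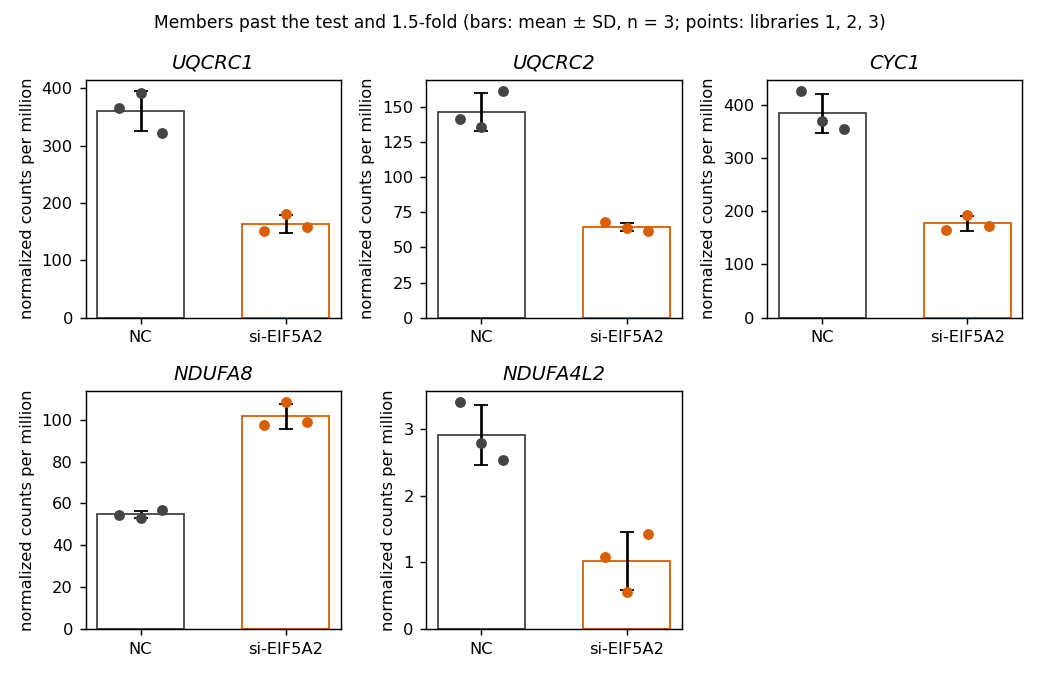
TMM-scaled CPM of 5 members past both thresholds, in NC and si-EIF5A2, with bars for the mean and SD of 3 libraries and points for libraries 1, 2 and 3. The points of the groups do not overlap in any panel, and NDUFA4L2 lies at or below 3.40 CPM throughout.

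The test left room for moderate differences in part of the members. Of the 46 members with an adjusted p of 0.05 or more, 34 had a 95% interval that stayed within 1.5-fold in both directions. The other 12 had intervals reaching further, among them COX7B (-0.68 to 0.75), NDUFA3 (-0.85 to 0.39), SDHC and NDUFS8. For these 12 the spread between libraries was too wide to bound the difference within 1.5-fold.

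Summed over 5 of the roles, complex III was the group with the lowest level relative to NC, at 2010, 2011 and 1960 CPM in NC, against 1503, 1686 and 1568 in si-EIF5A2. Complex IV was at 96.5% of NC, complex II at 111% and the assembly factors at 109%. The complex III libraries did not overlap, nor did those of the assembly factors, which lay above NC. With 3 libraries per group an exact permutation test cannot go below p = 0.1, and no test was made of these sums.

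**Figure D4:**
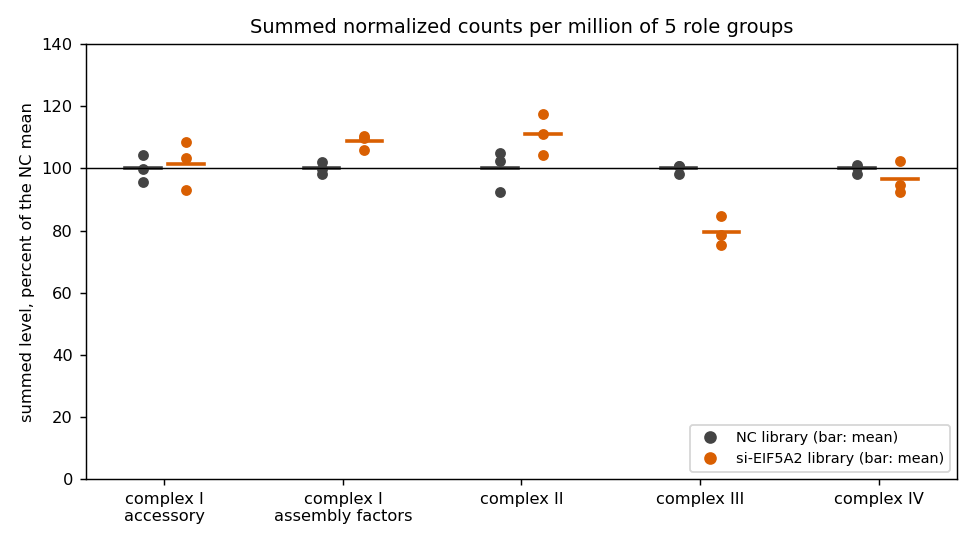
Summed CPM of 5 role groups in every library, as a percent of the NC mean, with grey points for NC, orange points for si-EIF5A2 and short bars for the means. The si-EIF5A2 mean of complex III lies at 79.5% of NC, and those of the other groups lie between 96.5% and 111%.

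The lower members had more GC-rich transcripts than the higher ones. The median GC content of the longest annotated transcript was 58.8% for the 13 lower members, 46.9% for the 13 higher members and 46.1% for the other 46. Across the 72 members, log2 fold change and GC content had a Spearman rho of -0.388, and across 16176 genes of the whole table the rho was -0.127. It was -0.380 over the 66 members not past both thresholds. Genes share libraries and are not independent replicates, and the part of base composition in the fold changes was not tested further. Of the lower members, UQCRC2 (45.5%), NDUFC1 (47.2%), NDUFA10 (47.4%) and UQCR10 (47.5%) lay below the members' median of 47.7%. The other lower members lay above it. With the correction for GC content and length UQCRC1, UQCRC2, CYC1, NDUFA4L2 and NDUFA8 all stayed past both thresholds. By adjusted p alone, 7 members were lower and 18 higher with this correction, against 13 and 13 without it. The log2 fold change of CYC1 moved from -1.12 to -0.91 with this correction. Those of NDUFV1, NDUFAF3 and NDUFA10 moved from -0.33 to -0.07, from -0.37 to -0.14 and from -0.21 to -0.13. With a replicate block added to the correction, UQCRC1 moved from -1.15 to -0.89 and NDUFA8 from 0.89 to 1.02. In that setting NDUFB10 moved from -0.37 to -0.16 and COX8A from -0.37 to -0.17. UQCRC2 stayed between -1.23 and -1.11 in all refits. Transcript length, taken as the median over a gene's best-ranked annotated transcripts, showed almost no relation (rho 0.026 over 72 members).

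**Figure D5:**
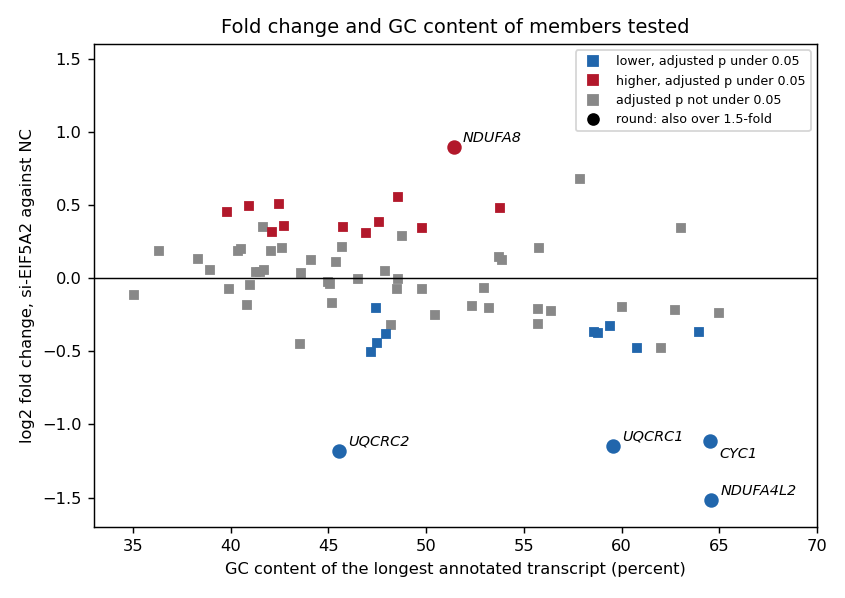
Log2 fold change (vertical axis) against the GC content of the longest annotated transcript in percent (horizontal axis) for 71 of the 72 members tested, with round points for 5 past both thresholds. Blue points, lower in si-EIF5A2, lie mostly to the right and red points, higher, mostly to the left of 50%, while UQCRC2 is a blue point at 45.5%.

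Nuclear respiratory genes are known as targets of the factors NRF1, GABPA and YY1, and the promoter windows of the members (RefSeq, GRCh38.p14, 250 bases before to 50 after the start) were searched on both strands for their core letters and for those of E2F. A window was found for 63 of the 78 members. The letters of NRF1 (GCGCA, any base, then GCGC, 10 bases in all) stood in 22.2% of these windows, in 11.6% of the windows of all genes tested and in 6.28% of all windows of this length. The letters CCGGAAG (GABPA) stood in 25.4%, 19.0% and 10.7%, AAGATGGC (YY1) in 12.7%, 5.31% and 3.03%, and TTTCCCGC (E2F) in 4.76%, 2.60% and 1.66%. No member window held overlapping matches of different factors. The NRF1 letters stood in the windows of 2 of 11 lower, 1 of 10 higher and 10 of 38 other members with a window. In the same order these counts were 1, 4 and 11 for GABPA, 2, 2 and 4 for YY1, and 1, 0 and 2 for E2F. The counts are small and were not tested. The match is printed here for UQCRC1, which fell past both thresholds, NDUFA8, which rose past both, UQCR10, which was lower without reaching 1.5-fold, and UQCRFS1, which did not pass the test, each in its stretch of 30 bases, 5′ to 3′ on the gene's strand, with the match in capitals.
UQCRC1 (chr3:48609674-48609703, minus strand): gtacggtactGCGCCTGCGCcgcgaccgcc
NDUFA8 (chr9:122159761-122159790, minus strand): gccggatGCGCATGCGCAGGCGCcgtgtgg
UQCR10 (chr22:29767351-29767380, plus strand): gtcggccccaGCGCAGGCGCggtggcgcga
UQCRFS1 (chr19:29213163-29213192, minus strand): gcgcctcctcGCGCCTGCGCcgtggttgga
NDUFA8 holds 2 overlapping matches and the others 1 each. A match of letters is a description and not evidence of binding, and the NRF1 letters stood beside transcripts that fell, rose and did neither by the test.

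Of 18 nuclear regulators of respiratory genes tested, 3 fell and 0 rose past both thresholds, and 4 were lower and 1 higher without the fold limit. The falls were 16.7% of the list with the fold limit, where 13.6% of all genes fell, and 22.2% without it, where 18.9% were lower, so these shares lie near the background and only the single genes are described. TFAM, a packaging protein and transcription factor of mitochondrial DNA, fell from 70.6 ± 1.92 to 21.3 ± 2.07 CPM (SD, n = 3, log2 fold change -1.73, SE 0.098). YY1 fell from 87.7 ± 12.3 to 49.0 ± 4.97 CPM (-0.84), and the coactivator PPARGC1B fell from 7.12 to 4.72 CPM (-0.59). The 0 that rose stood beside 2 higher and 5 lower at an unadjusted p under 0.05, and DESeq2 also called 0 higher. PPARGC1B lost its call under several settings, among them the leaving out of NC 1, NC 2, si-EIF5A2 2 or si-EIF5A2 3. NRF1 and GABPA did not pass the test (-0.18 and -0.06).

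The mitochondrially encoded subunits, which complete complexes I, III and IV, had negative log2 fold changes for all 11 genes tested (-0.41 to -0.04, median -0.32). By edgeR and by DESeq2, 0 passed both thresholds. By edgeR, 8 were lower without the fold limit (72.7%, beside 18.9% of all genes), and 9 were lower and 0 higher at an unadjusted p under 0.05. MT-ND3, MT-ND5 and MT-ND6 did not pass the test (edgeR adjusted p = 0.0525, 0.506 and 0.836). The 11 genes share a chromosome and the same libraries, and MT-ND4 and MT-ND4L overlap. They are not independent measurements, and the share was not tested. MT-CYB, the cytochrome b that works with CYC1 in complex III, was at 5601 ± 193 CPM in NC, against 4490 ± 75.7 in si-EIF5A2 (-0.32, edgeR adjusted p = 0.0039).

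Among 44 other assembly factors and cytochrome c, 7 fell and 3 rose past both thresholds, 15.9% and 6.82% of the list beside 13.6% and 11.1% of all genes. The share that fell lies near the background and is no result about the list. The falls were in COX10, a haem-synthesis enzyme (-1.38), COX20 (-0.98) and COX11 (-0.77), which help assemble complex IV, and in COX18, SURF1, PET100 and COA1. The rises were in TIMMDC1, which builds complex I (0.72), CYCS, the cytochrome c gene (0.67), and the copper chaperone COX17 (0.67). SURF1 lost its call without NC 1, at -0.58, and TIMMDC1 lost its call without NC 3, at 0.57. PET100 lost its call without NC 1, NC 2, si-EIF5A2 1 or si-EIF5A2 3, and SURF1, PET100 and COA1 lost theirs with the correction for GC content and length (-0.49, -0.48 and -0.58). Of the 18 complex V subunits, 0 fell and 1 rose past both thresholds by edgeR and by DESeq2, ATP5MD (0.62 by edgeR), which is 5.56% of the list beside 11.1% of all genes, and 2 were lower at an unadjusted p under 0.05. ATP5MF and ATP5PB were also higher without the fold limit, which made 3 of the list (16.7%), beside 18.0% of all genes.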

How the data were processed

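Paired-end mRNA libraries of SKOV3 cells were sequenced on an Illumina instrument. StringTie and ballgown gave the expression estimates, and what the authors deposited were estimated counts for each gene, as whole numbers without normalisation. Low values repeat in steps of about 3.74, so 1 fragment appears to be worth several counts. The submitters' processing notes name Bowtie 0.12.2 and the mouse builds mm8 and mm9, which do not match the human gene identifiers of the table and were not used. No other aligner, build or annotation is given in the sources used here. Gene positions, lengths and GC content came from GENCODE 29 (GRCh38), which held 58552 of the 58825 identifiers. GC content is that of the longest transcript, and length the median over the transcripts of best APPRIS rank and support level. The correction for GC content and length instead took the summed length of a gene's merged exons.

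Groups and replicate numbers came from the labels, and the 6 columns matched the 6 libraries by name. Genes were filtered with filterByExpr, scaled with TMM and tested with edgeR 4.0.16 (R 4.3.3, quasi-likelihood, robust, no covariates) with Benjamini-Hochberg adjustment over 16208 genes. Members were called at an adjusted p under 0.05 with a fold over 1.5, and also with no fold limit. Levels are TMM-scaled CPM. Intervals are 95% intervals from the same fit. The scripts were tested on simulated data. The plan had named counts; the deposited values were estimated counts, whole already, so rounding changed nothing.

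Alternatives were RLE, upper-quartile or no scaling factors, DESeq2 1.42.0, other count filters (none, or at least 10 counts in every library), a replicate block, a GC and length correction by natural splines with 4 degrees of freedom, division by the fragment value, addition of 119 pseudogenes named after 35 members or of 1 readthrough gene, summing of repeated symbols, other thresholds and leaving out each library. Fragments shared with overlapping genes on the same strand leave 19 members less certain. Named genes were EIF5A2, every called member, the highest and lowest of each role group, complex II, the isoform families, the untested members, those whose call changed with the fold limit and the called genes of each list. Results of 1 member and of 1 line marker are not reported here, while counts and medians over all members include that member. Members and lists were chosen with earlier results of these data known. Protein sequences were not used here. Promoter windows were searched for 63 of the 78 members, and no promoter was used for the others.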

Additional observations from a re-analysis of the deposited data

How the results depend on the processing

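UQCRC1, UQCRC2, CYC1, NDUFA4L2 and NDUFA8 kept their direction and both thresholds under all 19 refits, and no named gene that passed both thresholds in any setting changed sign. With the GC and length correction, alone or with the replicate block, 5 members were higher, with NDUFS8, NDUFA1 and SDHB added, and 2 complex V subunits were called. Of all genes, 14.04% and 13.26% were higher then. Without a fold limit, 13 members were lower and 13 higher (26 in all), with 3 complex V subunits, 17 other assembly factors, 5 regulators and 8 mitochondrially encoded subunits. With an unadjusted p under 0.05 and a fold over 2, 1 member was higher, and 0, 1 and 1 genes remained of the first 3 lists. UQCRC1, UQCRC2, CYC1 and NDUFA4L2 also passed this rule, as lower. The share of all genes under it was not counted, so these counts are no result about the members or lists. Leaving out 1 library gave 2 to 4 members higher, with 4 reached without NC 3 and without si-EIF5A2 3, 4 to 6 lower and 6 to 9 in all. Of all genes, 9.31% to 10.3% were higher and 11.8% to 13.0% lower then. Without the fold limit, 7 members were lower without NC 1 and 8 without si-EIF5A2 1, against 13 with all libraries. The shares of all genes were 15.6%, 16.2% and 18.9%. With the replicate block, 4 members were lower and 3 higher, beside 12.65% and 10.37% of all genes, and the EIF5A2 log2 fold change was -3.00. Same-numbered libraries shared only a number (correlations of deviations -0.024, 0.005 and -0.003). Of the other refitted gene values, 30 newly passed both thresholds and 20 no longer did, all without change of sign.

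Depth ran from 46900204 to 74142267 counts, and its effect on the calls was not tested.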

Other observations

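Replicate spread differed among the members. The median coefficient of variation over 3 libraries was 8.95% in NC and 8.51% in si-EIF5A2. In NC it was highest for COX7B (41.9%), COX7A2L (30.3%) and NDUFA3 (28.3%), and in si-EIF5A2 for NDUFA4L2 (42.7%) and NDUFA13 (27.9%). NDUFA13 was at 98.9, 106 and 85.0 CPM in NC, against 53.2, 90.7 and 63.8 in si-EIF5A2, with si-EIF5A2 2 inside the NC range. EIF5A, the paralog of the silenced gene, was at 457 ± 60.7 CPM in NC, against 532 ± 46.3 in si-EIF5A2 (SD, n = 3, log2 fold change 0.22, edgeR adjusted p = 0.174).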
